A study of Mus musculus with 10 samples.

Results

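Cytosolic ribosomal protein genes and their paralogs were compared between the mouse melanoma line WT31 and its liver-passaged subline WT31_P5IV. Members were chosen by gene symbol: protein-coding genes of GENCODE M21 named Rpl or Rps with a number, the stalk genes Rplp0, Rplp1 and Rplp2, and Rpsa, without the Rps6k kinases. The rule took 83 of 55385 genes, 51 with names of the large (60S) and 32 with names of the small (40S) subunit. Other ribosomal protein genes whose names the rule misses, such as Rack1 and Rpl36al, were kept apart.

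WT31 was derived from a melanoma of mice that carry the transgene Tyr::NrasQ61K, driven by the tyrosinase promoter, and lack INK4a, so both groups share these alleles. WT31_P5IV was obtained by 5 cycles of intravenous injection and recovery from the liver, and is a single passaged line. RNA came from untreated, sub-confluent cultures in RPMI medium with 10% fetal calf serum, not from metastases, and 5 libraries of each line were sequenced. Nothing in the labels beyond the words biological replicate says how the cultures were separated, so P values measure the spread between these libraries.

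The ribosome reads mRNA on its small subunit and joins amino acids on its large subunit, and each mature particle holds a single copy of most ribosomal proteins. Cells transcribe their genes at high levels, and many of their mRNAs begin with a terminal oligopyrimidine (TOP) run through which growth signals such as mTOR and LARP1 control their translation. Some proteins have a second gene, a minor paralog, whose use differs between tissues. The genome also holds many reverse-transcribed copies of these short mRNAs, most of them annotated as pseudogenes.

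The sequences of 3 genes are shown first, because their copies match them over the whole coding sequence and the fold changes below differ with and without these copies. Rpl12 (chr2:32961559-32965345, plus strand), which lies at the base of the stalk, has the copy Gm10275 (chr10:29698746-29699380, minus strand), equal over 495 coding bases. Rpl5 (chr5:107900502-107909005, plus strand), which carries 5S rRNA, has the copy Gm15500 (chr7:114705217-114706235, minus strand), equal over 891. Rpl10 (chrX:74270812-74273135, plus strand), which is added late in maturation, has the copy Rpl10-ps3 (chr9:50344201-50344968, minus strand), equal over 642. Coding bases 1 to 60 read as follows in GENCODE M21 (GRCm38), in lower case since none differ.
Rpl12: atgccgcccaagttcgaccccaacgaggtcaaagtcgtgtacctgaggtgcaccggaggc
Gm10275: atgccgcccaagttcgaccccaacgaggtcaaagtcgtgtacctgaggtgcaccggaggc
Rpl5: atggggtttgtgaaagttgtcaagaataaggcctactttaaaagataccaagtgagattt
Gm15500: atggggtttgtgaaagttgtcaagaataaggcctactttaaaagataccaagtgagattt
Rpl10: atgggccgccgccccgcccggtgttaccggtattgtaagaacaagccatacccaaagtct
Rpl10-ps3: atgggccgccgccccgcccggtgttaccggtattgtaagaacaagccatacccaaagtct

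Minor paralogs differ more from their parents than these copies do, as shown for 2 pairs in which the rule holds both genes and both were expressed. Rpl22 and Rpl22l1 were 70.1% identical over the aligned coding sequence and Rps27 and Rps27l 77.6%. Capitals mark the bases that differ, 14 of 60 in coding bases 199 to 258 of Rpl22 and 10 of 60 in coding bases 67 to 126 of Rps27.
Rpl22: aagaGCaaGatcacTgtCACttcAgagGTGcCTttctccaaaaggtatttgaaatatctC
Rpl22l1: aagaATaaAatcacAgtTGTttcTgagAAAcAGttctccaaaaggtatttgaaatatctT
Rps27: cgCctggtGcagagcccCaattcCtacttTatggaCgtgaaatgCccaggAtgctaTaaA
Rps27l: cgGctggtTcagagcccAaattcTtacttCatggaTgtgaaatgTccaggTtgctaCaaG

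Libraries held 24255389 to 25750639 estimated counts, so that 3 counts, the floor used for detection, stood for 0.114 to 0.129 CPM (counts scaled to a library of standard size). Counting error alone is covered by that floor. Melanocyte genes marked every library, among them Dct, at 5893 ± 221 CPM in the WT31 libraries and at 10233 ± 659 in those of the subline (mean ± SD, n = 5). Of 8 melanocyte markers 3 rose and 3 fell. The defining markers of leukocytes (Ptprc) and hepatocytes (Alb) reached at most 2 and 9 counts in any library. Summed over 5 leukocyte markers CPM was 4.84 to 6.68 and 4.22 to 6.24, and over 5 stellate cell and fibroblast markers 1.57 to 2.19 and 3.16 to 3.99, so the latter were higher in WT31_P5IV at a low level. Within the leukocyte list Cd68 rose from 1.37 to 3.73 CPM and Lyz2 fell from 4.33 to 1.08 CPM. Their part in the results below was not tested. In such bulk RNA, fewer cells of a type and less RNA per cell cannot be told apart. WT31 replicates 2 and 3 stood apart from the other 3 WT31 libraries: their counts differed by a chi-square of 7.81 to 22.7 per gene, against 2.92 between these 2 and at most 5.68 among the others. Pairs of WT31_P5IV libraries differed by 3.29 to 8.91. Of the 80 members tested, 78 were lower in replicates 2 and 3 than in the other WT31 libraries, by a median of 0.25 on the log2 scale, where the median of all tested genes was 0.00. The counts over all members and the values of a number of named members are therefore also given without them, while the subunits, sums, chromosomes, GC content and related genes are described in all libraries. Leaving them out raises the WT31 level of these 78 members, which moves their fold changes down by construction. A lower call in that fit is thus no support for a decrease. Genes encoded by mitochondrial DNA took 6.20 to 7.18% of the counts in WT31 and 10.8 to 12.9% in WT31_P5IV.

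Most ribosomal protein mRNAs differed little between the lines, and those that differed were mainly lower in WT31_P5IV. Of the 80 members tested, 30 fell, 7 rose and 43 did not pass the test (edgeR, adjusted P < 0.05 over all 13620 tested genes). Among all tested genes 33.9% were lower, 34.6% higher and 68.5% called in either direction, so the members' 30 of 80 (37.5%) called lower lies near the background and their 7 of 80 (8.75%) called higher below it. No member reached a log2 fold change of 1 in size, which 9.19% of all tested genes passed together with the test. The median log2 fold change was -0.07 over the members and 0.01 over all tested genes, with a range over the members from -0.56 for Rpl24 to 0.64 for Rpl12. The CPM of the groups did not overlap for 17 members that were lower (27.5% of all tested genes) and 3 that were higher (26.6%). On the TPM scale, 36 members were lower without overlap (35.5% of all tested genes) and 0 higher (15.4%). TPM count transcripts per length, add up to the same total in each library and were not scaled by TMM. On log2(TPM + 0.1) the median log2 fold change of all tested genes was -0.14. With an offset for effective length and TMM, 35 members were called lower (32.5% of all tested genes) and 5 higher (31.1%). Without WT31 replicates 2 and 3, 49 members were called lower (34.2% of all tested genes) and 54 in either direction (67.1%), with a median of -0.18. That fit moves most members down by construction, so it cannot support the decreases. All 30 members that fell were called lower in it, and of the 7 that rose, Rpl37a and Rps27l were not called. Leaving out WT31 replicate 5 instead gave 13 members higher and 30 lower (33.6% and 34.6% of all tested genes).

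**Figure D1:**
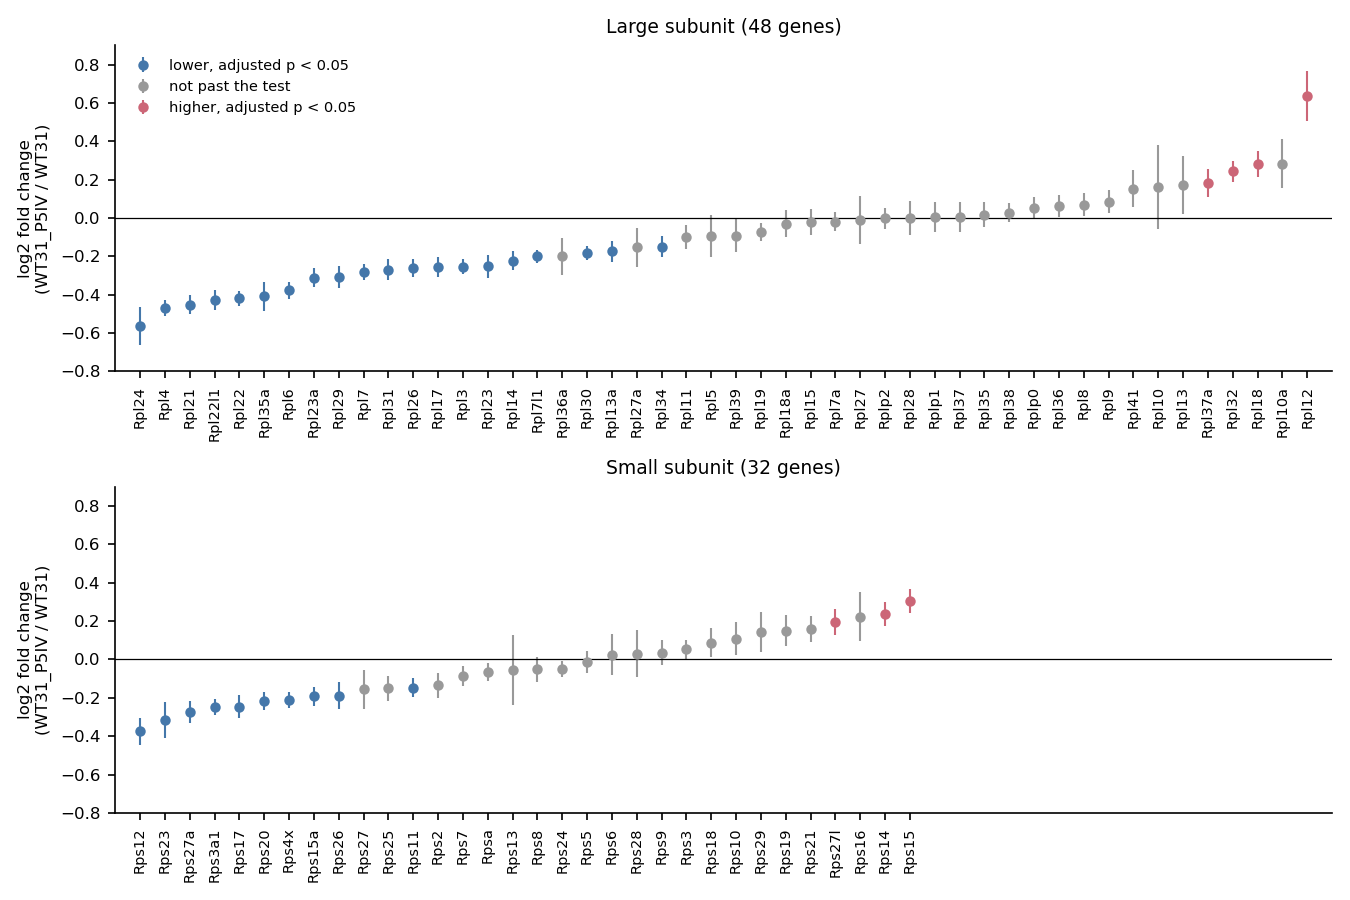
Log2 fold change (WT31_P5IV over WT31) of the 80 tested ribosomal protein genes, ordered by value within the large (48 genes) and small (32 genes) subunit, with bars for the standard error and colour for the call. Of the points, 58 lie within 0.25 of 0, 30 genes are called lower and 7 higher, and Rpl12 stands alone at the top of the large subunit.

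The subunits were described apart, and the decreases included members of both. Of 48 large-subunit genes 20 fell and 4 rose (median -0.09), and of 32 small-subunit genes 10 fell and 3 rose (median -0.05), where 33.9% of all tested genes were lower and 34.6% higher. Small-subunit genes made up 41.9 to 42.1% of the members' summed CPM in WT31 and 42.7 to 43.0% in WT31_P5IV, without overlap. The order held for TPM (43.7 to 44.3% against 44.5 to 44.9%) and with copies added to their genes (39.2 to 39.8% against 40.5 to 40.9%). The shift is about 1 percentage point, from 42.0% ± 0.0740 to 42.9% ± 0.0876 (SD, n = 5 each).

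Large-subunit genes led the decreases. Rpl24, whose protein helps join the subunits, was at 442, 359, 362, 510.2 and 522 CPM in WT31 replicates 1 to 5 and at 292, 300.5, 259.6, 327 and 308 CPM in WT31_P5IV. Every WT31_P5IV library lay below every WT31 library, and the mean fell from 439 ± 78.0 to 297 ± 24.6 CPM (log2 fold change -0.56, SE 0.10, adjusted P = 0.000164). Rpl4, a core protein near the exit tunnel, was at 1522, 1443, 1462, 1540.4 and 1527 CPM in WT31 and at 1038, 1008, 1129, 1138 and 1103 CPM in WT31_P5IV. Its groups were far apart relative to their spread (log2 fold change -0.47, SE 0.042, adjusted P = 1.39e-07). Rpl21 was at 443 to 502 CPM in WT31 and 315 to 372 CPM in WT31_P5IV (log2 fold change -0.45, SE 0.051).

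Rpl35a, a gene mutated in some patients with Diamond-Blackfan anaemia, fell from 285 ± 35.7 to 214 ± 14.9 CPM (log2 fold change -0.41, SE 0.075). Rpl6 fell from 985 ± 53.0 to 758 ± 38.5 CPM (log2 fold change -0.38, SE 0.046). Rpl23a, which lies at the tunnel exit, fell from 785 ± 52.1 to 633 ± 28.5 CPM (log2 fold change -0.31, SE 0.048). The groups did not overlap for any of these 3 genes. In the small subunit Rps12 fell from 370.2 ± 35.3 to 285 ± 25.2 CPM (log2 fold change -0.38, SE 0.069). Rps23, a protein of the decoding centre, fell from 133 ± 19.7 to 107 ± 10.9 CPM with overlapping groups (log2 fold change -0.32, SE 0.092, adjusted P = 0.00696). The 10 largest decreases include Rpl22 and Rpl22l1 below. All kept their call without WT31 replicates 2 and 3, a fit that moves most members down, with log2 fold changes from -0.74 to -0.39.

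The 7 members that rose did so by small amounts, apart from Rpl12. Rps15, a small-subunit protein near the decoding site, was at 646, 546, 569.5, 664 and 701 CPM in WT31 and at 747, 762, 744, 794 and 815 CPM in WT31_P5IV. Its groups did not overlap, and WT31 replicates 2 and 3 were the lowest (log2 fold change 0.30, SE 0.061, adjusted P = 0.000468; 0.19 without both). Rpl18 rose from 629 ± 76.6 to 766 ± 19.5 CPM (log2 fold change 0.28, SE 0.067; 0.15 without both). Rpl32 rose from 552 ± 46.1 to 654 ± 27.4 CPM (log2 fold change 0.24, SE 0.054; 0.15 without both). Neither gene's groups overlapped.

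Rps14, a small-subunit protein lost in the 5q- syndrome of human bone marrow, rose from 535 ± 58.7 to 629.8 ± 19.3 CPM with groups that just overlapped (log2 fold change 0.24, SE 0.062, adjusted P = 0.00382; 0.12 without both). Rpl37a rose from 279.7 ± 36.8 to 318 ± 11.8 CPM (log2 fold change 0.18, SE 0.073, adjusted P = 0.0351). That call was lost when any of WT31 replicates 1, 2 or 3 or WT31_P5IV replicates 1, 2, 4 or 5 was left out (log2 fold change 0.12 to 0.19), and with WT31 replicates 2 and 3 both left out the log2 fold change was 0.04. It was also lost with the offset for effective length (0.14). On the TPM scale only Rpl12 of the 7 passed the test (limma on log2(TPM + 0.1)), and 52 of 80 members were called lower (43.7% of all tested genes) and 1 higher (21.4%). On that scale the median was -0.25 over the members and -0.14 over all tested genes.

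By mean TPM over all 10 libraries, the most abundant members per length were Rpl41, Rps24, Rplp1, Rps2 and Rps15, and the order differed between the lines below Rps24. Rpl41, which encodes a very short peptide, was highest at 4710.2, 3713, 3969, 4925 and 5429.5 TPM in WT31 and 4365, 4496, 3969, 4853 and 4852 TPM in WT31_P5IV. The groups of Rpl41 overlapped widely (CPM log2 fold change 0.15, SE 0.097, adjusted P = 0.174). Rps24 was at 4004 ± 90.1 and 3322 ± 210.0 TPM, Rplp1 at 3485 ± 358 and 3065 ± 159.7 TPM, and Rps2 at 3597 ± 312 and 2915 ± 174 TPM. None of these 3 passed the test on CPM, with log2 fold changes of -0.05, 0.00 and -0.13 (SE 0.040, 0.077 and 0.065). Without WT31 replicates 2 and 3 all were called lower (-0.10, -0.14 and -0.25), and on log2(TPM + 0.1) too (-0.27, -0.18 and -0.30). Neither is separate support, since both fits move most members down. The first leaves out low WT31 libraries, and TPM were not scaled by TMM (median -0.14 over all tested genes). Rps2 was also called lower when WT31 replicate 2 or 3 or WT31_P5IV replicate 4 alone was left out (-0.19 to -0.17). The same held with the offset for GC content (-0.30). Rplp1 and the other stalk genes, whose proteins recruit translation factors, did not pass the main test, with log2 fold changes from 0.00 to 0.05. The sign of Rplp1 changed with the scaling. With the GC offset described below, Rplp1 and Rplp2 were called lower (-0.18 and -0.13), as on log2(TPM + 0.1) (-0.18 and -0.16), and Rplp0 in neither. Of the 83 members, 78 averaged over 100 TPM and 54 over 1000 TPM.

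Summed over the members, the groups overlapped on one scale and not on the other. Summed CPM was 41479, 35936, 37341, 43257 and 44896 in WT31 and 38009.6, 37185, 37021, 40634 and 39627 in WT31_P5IV. WT31 replicate 2 lay below and replicate 3 within the range of WT31_P5IV, and the other 3 lay above it. The members took 11.01 to 12.9% of all TPM in WT31 and 9.74 to 10.9% in WT31_P5IV. Taken as a share of the TPM of genes outside the mitochondrial chromosome, a measure added after the values were seen, the members stood at 13.1 to 15.1% and 13.1 to 14.1%, which overlap.

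**Figure D2:**
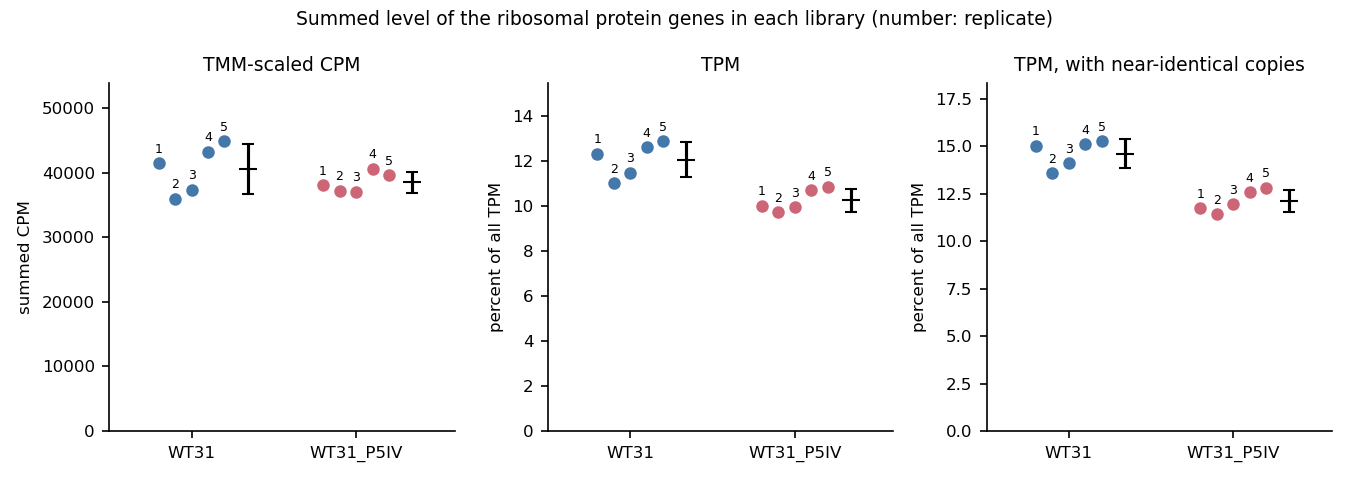
Summed level of the 83 members in each library of WT31 and WT31_P5IV, as CPM scaled by TMM (left), percent of all TPM (middle) and percent of all TPM with their near-identical copies (right). Points are libraries with their replicate number, and bars give the mean and SD (n = 5). The groups overlap for CPM, and do not for TPM (11.01 to 12.9% against 9.74 to 10.9%).

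Near-identical copies took a large share of the counts of some members. kallisto divides reads that match several transcripts among them, and 24 members had copies with at least 100 mean counts that shared at least 50% of their 31-base words with the member. In 7 of these, Rpl5, Rpl12, Rpl27a, Rps23, Rpl31, Rpl10 and Rpl28, copies held over 50% of the summed counts on average. For Rpl5 the share was 84.4 to 89.8% over the 10 libraries, and the gene was listed at 72.6 to 105 TPM, among the lowest tested members. For Rpl10 it was 68.7, 73.4, 77.7, 59.0 and 45.0% in WT31 and 47.4, 49.9, 65.5, 43.0 and 46.0% in WT31_P5IV. WT31 replicates 2 and 3 thus held the highest shares in their group, and WT31_P5IV replicate 3 in the other. How reads were divided between gene and copy cannot be checked from summed values.

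Rpl12 was the clearest case. The gene was at 69.0, 50.1, 56.0, 77.8 and 90.2 CPM in WT31 and 107, 109, 87.8, 109 and 121 CPM in WT31_P5IV (log2 fold change 0.64, SE 0.13, adjusted P = 0.000520; 0.42 without WT31 replicates 2 and 3). Its copy Gm10275, with the coding sequence shown above, was at 658, 601, 618, 658 and 658 CPM in WT31 and 487, 466, 538, 532 and 536 CPM in WT31_P5IV (log2 fold change -0.32, SE 0.047). The gene rose while the copy, which held most of the counts, fell. Summed with all its copies, Rpl12 went from 708 ± 42.4 to 619 ± 33.3 CPM and was called lower (log2 fold change -0.19, SE 0.048, adjusted P = 0.00228).

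Several other members also moved down when copies were added, whereas Rps27 moved from -0.16 to 0.05 and Rpl21 from -0.45 to -0.40. Rpl10 was not called as deposited (log2 fold change 0.16, SE 0.22, adjusted P = 0.525), with CPM from 179 to 480.3 in WT31. With its copies it stood at 777 to 874 CPM in WT31 and 639.8 to 702 CPM in WT31_P5IV, without overlap (log2 fold change -0.32, SE 0.041, adjusted P = 7.11e-06). Rpl5, chosen after its values were seen, went from a log2 fold change of -0.09 (SE 0.11) to -0.29 (SE 0.038, adjusted P = 7.69e-06). Rps13 and Rpl27a, named for the same reason, went from -0.05 (SE 0.18) to -0.31 (SE 0.051) and from -0.15 (SE 0.10) to -0.24 (SE 0.051). Without WT31 replicates 2 and 3, Rpl5, Rps13 and Rpl27a were called lower as deposited (-0.25, -0.33 and -0.31). In all, 38 members were called lower with copies summed (34.1% of all tested genes), 6 higher (34.7%) and the median was -0.11. The 30 lower calls were kept, 7 further members became lower and Rpl12 turned from higher to lower. With copies summed and WT31 replicates 2 and 3 left out, 55 members were lower (34.4% of all tested genes) and 4 higher (33.1%). Of 26 tested copies with at least 100 mean counts, 2 copies of Rpl27 had equal values in every library. Counting these once, 14 of 25 fell (33.9% of all tested genes) and 11 did not pass the test, with a median of -0.31.

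**Figure D3:**
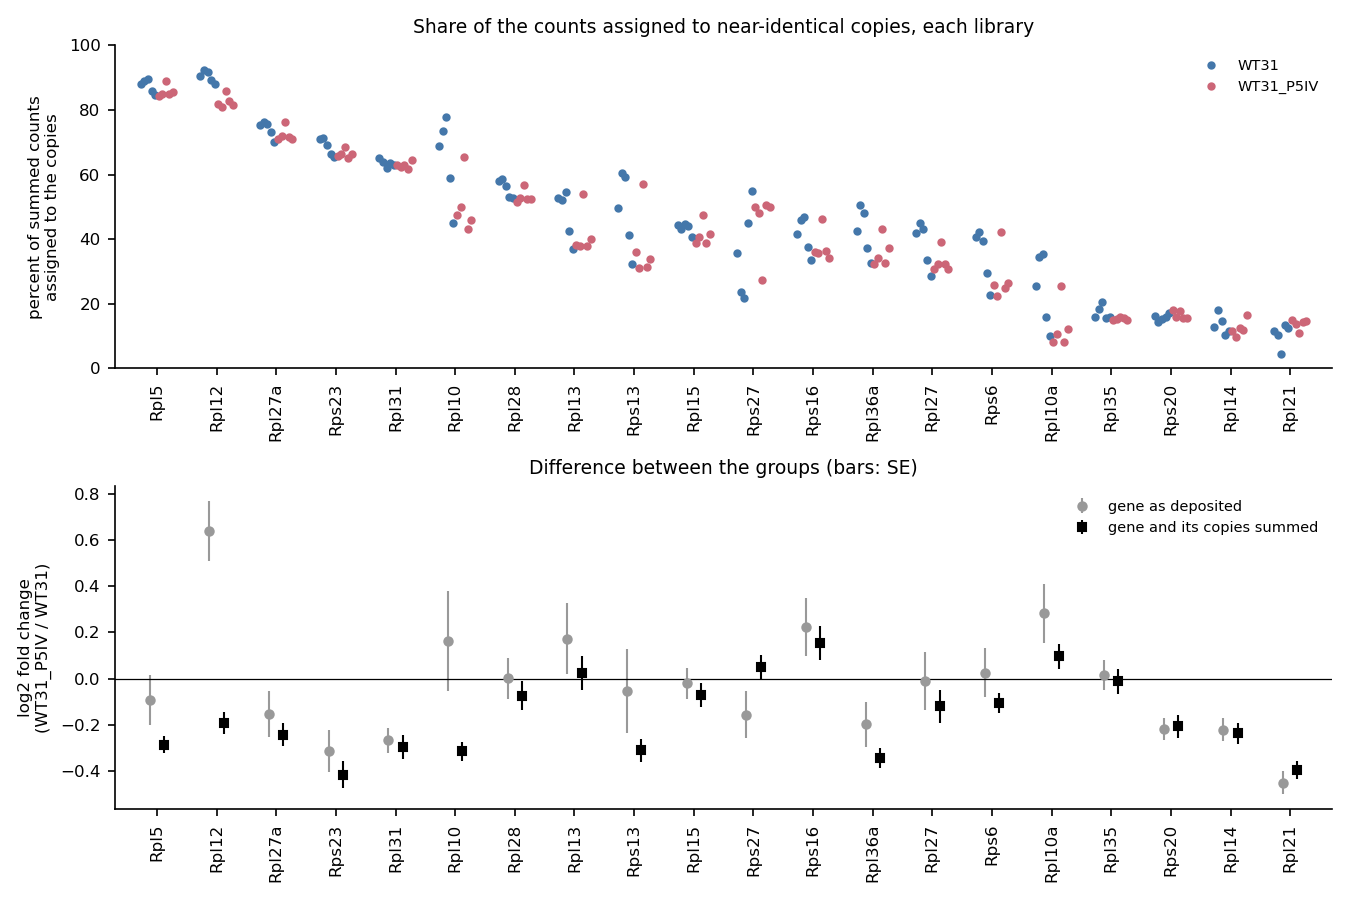
Members for which copies held over 10% of the counts on average. Upper panel: percent of the summed counts of gene and copies that was assigned to the copies, 1 point for each library. Lower panel: log2 fold change with SE for the gene as deposited and for gene and copies summed, where Rpl12 goes from 0.64 to -0.19 and Rpl10 from 0.16 to -0.32 with a smaller SE.

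Among the minor paralogs, those of Rpl22 and Rpl7 fell with their parents, and Rps27l did not. Rpl22, an RNA-binding protein of the 60S subunit, was at 209.7, 199, 202, 214 and 209 CPM in WT31 and 149, 146, 159.7, 165 and 153 CPM in WT31_P5IV (log2 fold change -0.42, SE 0.040, adjusted P = 3.05e-07). Rpl22l1 was at 41.4, 39.3, 39.8, 45.4 and 45.4 CPM in WT31 and 30.03, 32.7, 30.5, 30.6 and 33.5 CPM in WT31_P5IV (log2 fold change -0.43, SE 0.053, adjusted P = 4.47e-06). Neither pair of groups overlapped, and the paralog made up 17.5% ± 0.633 of the TPM of the pair in WT31 and 16.8% ± 1.148 in WT31_P5IV. The ranges of this share overlapped between the lines.

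Rpl7 fell from 982 ± 45.4 to 808 ± 30.2 CPM (log2 fold change -0.28, SE 0.041) and Rpl7l1 from 127 ± 2.54 to 111 ± 3.14 CPM (-0.20, SE 0.033), each without overlap. Rpl7l1 made up 4.50% ± 0.267 and 4.69% ± 0.150 of the TPM of that pair. Rps27l, which is induced by p53 in many cells, was at 93.9, 83.5, 80.6, 95.9 and 108 CPM in WT31 and 110.3, 103, 96.6, 108 and 110.5 CPM in WT31_P5IV (log2 fold change 0.20, SE 0.069, adjusted P = 0.0204). That call was lost when WT31 replicate 2 or 3 or WT31_P5IV replicate 1 or 5 was left out (0.14 to 0.18), and without both WT31 replicates 2 and 3 the log2 fold change was 0.08. In TPM Rps27l stood at 429.7 ± 28.1 and 429 ± 21.9, and the log2 fold change was 0.00. Rps27 was at 155 to 232 CPM in WT31 and 164 to 222 CPM in WT31_P5IV (log2 fold change -0.16, SE 0.10, adjusted P = 0.184). It was called lower without WT31 replicate 5 or without WT31_P5IV replicate 3 (-0.25 each), and on TPM (-0.41). Its copies, led by Rps27rt with an equal coding sequence, held 21.6 to 55.0% of the summed counts over the 10 libraries, and with them the log2 fold change of Rps27 was 0.05 (SE 0.054).

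Rpl36al, which the symbol rule misses, was at 579 ± 19.9 and 483 ± 28.96 TPM and made up 46.8% ± 2.40 and 48.9% ± 2.19 of its pair with Rpl36a. On CPM neither gene passed the test (log2 fold change -0.04 for Rpl36al and -0.20, SE 0.097, for Rpl36a). Rpl36a was called lower without WT31 replicates 2 and 3 (-0.36, adjusted P = 0.000267) and on TPM (-0.39), fits that both move most members down. Rpl36a with its copies was called lower (-0.35, SE 0.043). The tissue-restricted paralogs were absent or nearly so. Rpl10l and Rpl39l, known from testis, had 0 counts in all 10 libraries, and so did Rps4l, which GENCODE M21 lists as a pseudogene. Rpl3l, known from skeletal muscle and heart, had 0 to 2 counts in a library, under the floor of 3 counts. Their parents Rpl3 and Rps4x fell (log2 fold change -0.25, SE 0.039, and -0.21, SE 0.041), and Rpl39 was at 219.7 ± 32.01 and 206 ± 16.8 CPM and not called (-0.09, SE 0.086). Without WT31 replicates 2 and 3 Rpl39 was called lower (-0.23, adjusted P = 0.00389), as it was on TPM (-0.27). The same limit applies to these 2 fits.

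**Figure D4:**
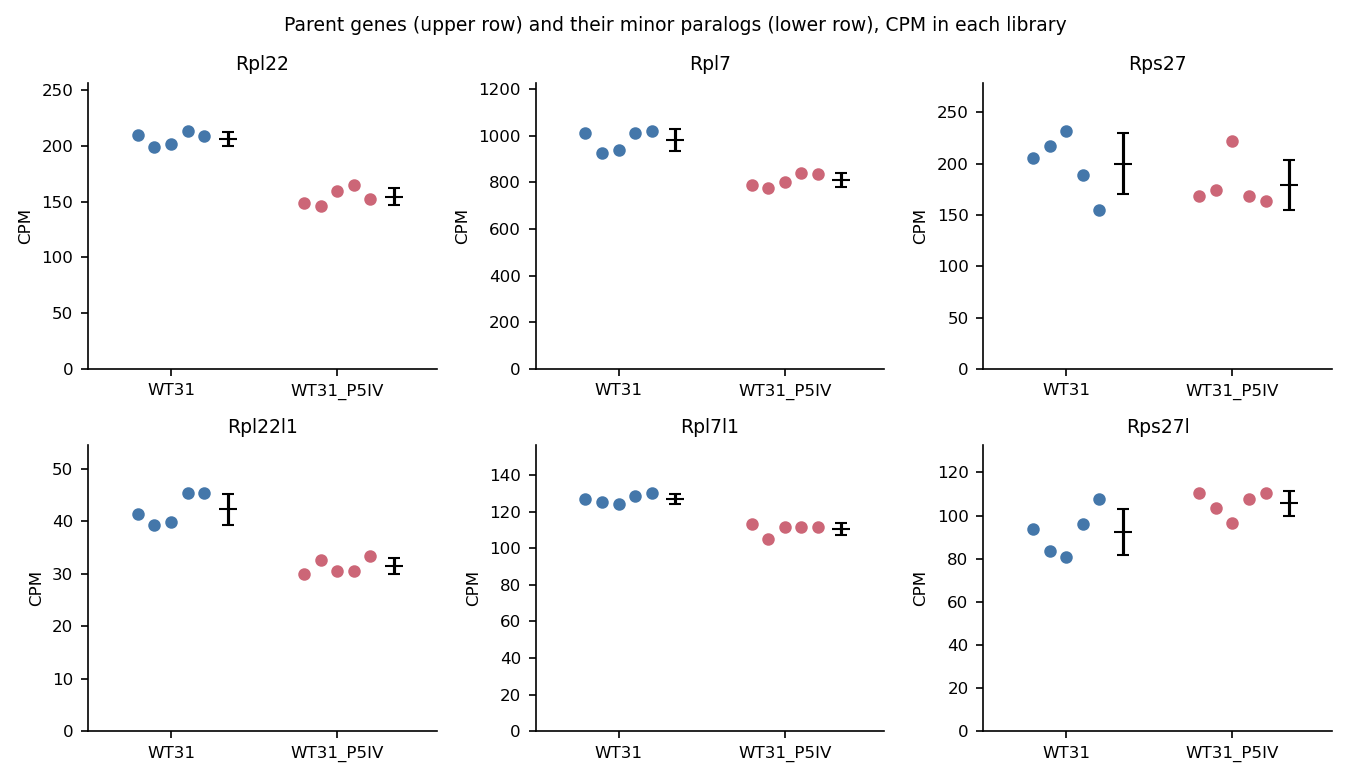
CPM in each library for 3 parent genes (upper row) and their minor paralogs (lower row), with the mean and SD of each group (n = 5). Rpl22, Rpl22l1, Rpl7 and Rpl7l1 lie lower in WT31_P5IV without overlap, whereas the groups of Rps27 and Rps27l overlap.

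The members lie on 18 autosomes and the X chromosome, with 14 on chromosome 7. On chromosome 16 both tested members, Rpl24 (chr16:55966275-55971435) and Rpl35a (chr16:33056453-33060189), fell, with a median log2 fold change of -0.49. All 415 tested genes of that chromosome had a median of -0.42, of which 68.2% were called lower and 10.1% higher. On chromosome 6 the only member, Rpl32 (chr6:115805505-115808747), rose by 0.24, and the 677 tested genes had a median of 0.28 with 59.2% called higher. Rpl24, Rpl35a and Rpl32 thus moved in the direction of their chromosome's median, whose part in these changes was not tested. On the other chromosomes with members the median of all genes lay between -0.13 and 0.08. Rpl4 on chromosome 9, Rpl21 on chromosome 5 and Rpl22 on chromosome 4 fell where the medians of all genes were 0.03, 0.02 and -0.01.

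Log2 fold changes of the members followed the GC content of their transcripts. Across the 80 tested members Pearson's r was 0.39 and Spearman's rho 0.42, a description over genes that share the same 10 libraries. Of the 40 members with the lower GC content, 21 fell and 4 rose (median -0.19), and of the 40 with the higher, 9 fell and 3 rose (median 0.00). Of all tested genes in the same ranges of GC content, 43.3% were called lower and 25.4% higher in the lower range (7123 genes), and 23.1% lower and 46.1% higher in the higher range (5245 genes). All tested genes showed the relation too (rho 0.25), with medians from -0.13 in the second decile by GC to 0.26 in the highest. The difference within WT31, replicates 1, 4 and 5 against 2 and 3, also moved with GC, from -0.15 in the lowest to 0.15 in the highest decile. The cause of this relation was not tested. With an offset for GC in each library, 39 members were called lower (36.5% of all tested genes) and 4 higher (32.3%), with a median of -0.13. Spearman's rho over the members was then -0.05, where the offset is built to remove the relation over all genes. Of the 7 members that rose, Rps14, Rps15 and Rpl18 were then no longer called (log2 fold change 0.10, 0.06 and 0.09). Of the 30 that fell, 4 small-subunit genes, Rps15a, Rps20, Rps23 and Rps26, were no longer called, with Rps23 at -0.23. Rpl12, Rpl32, Rpl37a and Rps27l kept their higher call.

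**Figure D5:**
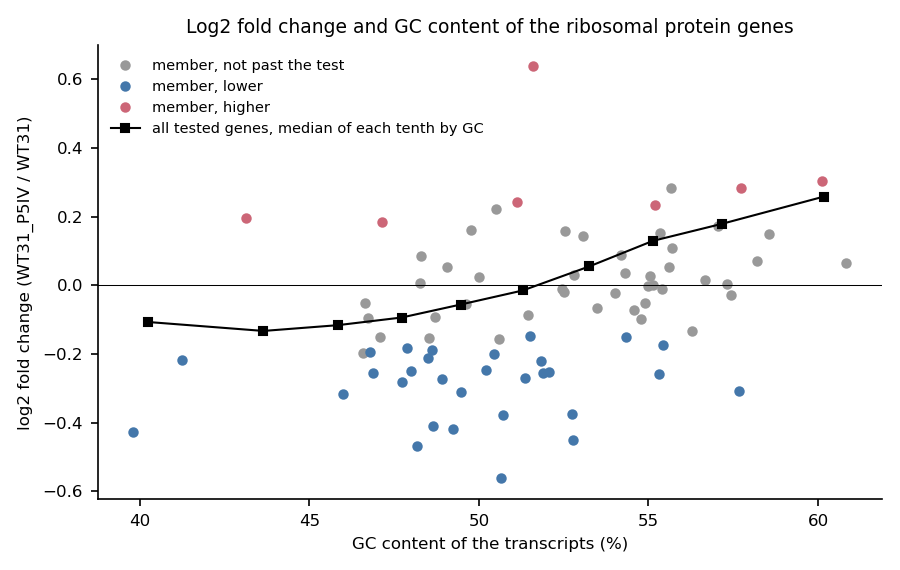
Log2 fold change of each of the 80 tested members against the GC content of its transcripts, coloured by call, with the medians of all tested genes in 10 bins of equal size by GC as a black line. The line ends at 0.26, and members called lower lie below it.

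The start regions of the members were searched for 2 motifs in RefSeq promoters (GRCm38.p6), which matched 63 of the 83 members by symbol. The letters CTTTTC on the sense strand, a short TOP-like run, were present from 20 bases before to 50 after the start in 9 of the 63 (14.3%), against 2.86% of 27025 genes. The run was not required to begin at the start site, so this share is no count of TOP mRNAs. By call, they were present in 3 of 19 matched members that fell, 2 of 5 that rose and 4 of 39 others. CCGGAAG on either strand, a core bound by ETS factors, was found within the 300 bases in 26 (41.3%), against 9.93% of all genes. By call, it was found in 6 of 19 that fell, 1 of 5 that rose and 19 of 39 others. Neither motif holds the other. These calls are those of the counts as deposited, where Rpl12 was called lower with its copies summed and Rps15 was not called with the GC offset. Windows are printed for Rpl4 and Rps12, called lower, and Rpl12 and Rps15, called higher, with the motif in capitals: chr9:64173363-64173392 (plus strand), chr10:23787183-23787212 (minus), chr2:32961702-32961731 (plus) and chr10:80292448-80292477 (plus). The motif begins at base -12, 10, 3 and 30 from the start site in these windows.
Rpl4: gacaagtctttcCTTTTCctgtgggagcag
Rps12: gccaccgccggcCTTTTCccctgccgccgc
Rpl12: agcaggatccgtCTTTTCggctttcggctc
Rps15: agcccgtacttcCTTTTCcgagtaaccgcc

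Genes that work with the ribosomal proteins were described from lists, beside the 33.9% lower and 34.6% higher of all tested genes. The lists were chosen with earlier results of these data known. Of 6 ribosomal protein genes that the symbol rule misses, 1 rose, Rack1 (log2 fold change 0.19, SE 0.053), and 0 fell, with a median of 0.10. With the GC offset 1 of these was higher and 1 lower. Of 11 other TOP mRNAs, 9 fell and 1 rose, with a median of -0.33. Hnrnpa1 and Eif3e fell most (log2 fold change -0.51, SE 0.039, and -0.44, SE 0.041), and Gas5, a non-coding host of small nucleolar RNAs, rose (0.34, SE 0.038). With the GC offset Hnrnpa1 and Eif4b were at -0.40 each, Naca at -0.35, Eif3e at -0.33 and Gas5 at 0.46. Of 8 tested translation elongation factors, 7 fell (median -0.21), among them Eif5a2 (-0.42, SE 0.070) and Eef1a1, which delivers aminoacyl-tRNA (9381 ± 248.8 to 7398 ± 268 CPM, -0.34, SE 0.039). Of 38 ribosome biogenesis factors, 23 fell and 8 rose (median -0.15). Nucleolin (Ncl) and Gtpbp4 fell most (-0.57, SE 0.054, and -0.52, SE 0.041). With the GC offset they were at -0.60 and -0.40, and Sbds was at -0.46. Nle1 and Nop2, the latter on chromosome 6, rose most (0.56, SE 0.061, and 0.41, SE 0.035). With the GC offset these were at 0.32 and 0.25, and Nop56 was higher at 0.36.

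Of 14 genes of RNA polymerase I and its factors, 5 fell and 4 rose. Rrn3, the initiation factor for rRNA synthesis, fell by 0.77 on the log2 scale (SE 0.038), and lies on chromosome 16. Twistnb fell by 0.32 (SE 0.049), whereas Taf1d and Taf1c rose (0.61, SE 0.045, and 0.54, SE 0.053). With the GC offset Twistnb was at -0.21, Taf1d at 0.73 and Taf1c at 0.27, and all kept their call. Of 17 tested regulators of ribosomal protein mRNAs, 8 fell and 5 rose. Rps6kb1, a kinase of ribosomal protein S6, and Max fell (-0.55, SE 0.044, and -0.47, SE 0.043). Rps6kb2, the other S6 kinase, named after its values were seen, rose (0.30, SE 0.064). Tia1, which lies on chromosome 6, and Rptor rose as well (0.57, SE 0.042, and 0.40, SE 0.053). With the GC offset Rps6kb2 and Rptor were at 0.15 and 0.23, Tia1 at 0.69, and Rps6kb1 and Max at -0.44 each. Myc and Akt1s1, named after their values were seen, were then lower still (-0.52 and -0.48). Of 7 dedicated chaperones of ribosomal proteins, 3 fell and 1 rose, with Bccip and Tsr2 lower (-0.35, SE 0.045, and -0.28, SE 0.043) and Pdcd2l higher (0.29, SE 0.083).

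Of 78 mitochondrial ribosomal protein genes, all tested, 19 fell and 27 rose (median 0.01), beside 33.9% lower and 34.6% higher of all tested genes. With the GC offset 18 were lower and 20 higher (36.5% and 32.3% of all tested genes). On log2(TPM + 0.1) 41 were lower and 8 higher (beside 43.7% and 21.4%), with a median of -0.18 where that of all tested genes was -0.14.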

How the data were processed

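RNA of 5 WT31 and 5 WT31_P5IV cultures was sequenced, and each library has a deposited file of estimated counts and one of TPM. According to the submitters' processing notes reads were trimmed with Trim Galore 0.6.4 and quantified by the authors with kallisto (0.4.6 in those notes) against GRCm38.p6, and the deposited estimated counts and TPM were summed per gene. Labels name instruments of different makers. For WT31, numbers in sample titles were used, since file labels number the libraries otherwise. The strand setting is not given in the sources used here.

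Estimated counts were rounded to whole numbers. Of 31234 genes with at least 1 count, filterByExpr kept 13620, including 80 members. Groups were compared with glmQLFTest in edgeR 4.0.16 (R 4.3.3) after TMM scaling, with Benjamini-Hochberg adjustment at 0.05. The authors' methods name limma voom, an alternative here. CPM are TMM-scaled and serve within a gene, TPM between genes. Symbols came from GENCODE M21 (55144 of 55385 identifiers). Copies are genes with at least 50% of their 31-base words in a member (310 summed). On simulated data with 200 of 13477 genes changed, edgeR found 95.5% with 13 false calls, DESeq2 95.5% with 23 and limma voom 95.5% with 14. The planted changes were larger than those of nearly all members, whose median size was 0.16. In the data 68.5% of tested genes were called, far more than were planted. These rates therefore do not carry over to the members.

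Named members are the minor paralogs and parents, up to 10 largest increases and decreases past the test, the 5 highest by TPM and those not tested. Of the lists, up to 4 genes are named by this rule, and a few more were named after their values were seen. Members, lists and this rule were chosen with earlier results of these data known. Alternatives were DESeq2 1.42.0, voom of limma 3.58.1 (TMM or no scaling), scaling by upper quartile, TMM without members, 2 filters, limma on log2(TPM + 0.1) and log2(TPM + 1), an offset for effective length, pseudogenes summed, the replicate block and each library left out. Chosen after seeing the data were the GC offset (lowess, span 0.3), copies of any type summed, WT31 replicates 2 and 3 left out, both together, and TPM without mitochondrial genes. Scripts used Python 3.11.15, numpy 2.4.6 and pandas 2.3.3.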

Additional observations from a re-analysis of the deposited data

Results flagged for a closer look

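In 64 groups of 5 libraries, the CPM of 32 named members in each line, the highest or lowest library was compared with its nearest neighbour by Dixon's ratio at the 95% level, and 4 stood out. Chance flags about 1 in 20 groups. Rpl21 was at 502 CPM in WT31 replicate 3, with the next library at 451 CPM. Its copies held 4.25% of the summed counts in that library and 10.4 to 15.0% in the others. Rps27 was at 222 CPM in WT31_P5IV replicate 3, with the next at 174 CPM, and its copies held 27.2% there and 47.9 to 50.7% in the rest of that group. Rps13 was at 84.0 CPM in the same library, with the next at 130.1 CPM, and its copies held 57.1% there and 30.95 to 35.9% in the rest. Rpl7l1 was at 105 CPM in WT31_P5IV replicate 2, with the next at 111 CPM. The part of the copies in these values was not tested.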

How the results depend on the processing

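Across 832 comparisons of a named member's fold change with its main value, 703 kept direction and side of the threshold, 59 passed it anew, 34 no longer passed it and 36 changed sign. The counts over all tested genes (4709 higher, 4618 lower) were within 1.5 times of these in each alternative except the number higher on TPM, 2915 with a pseudocount of 0.1 and 2910 with 1. The number of members higher was 1 with either pseudocount, 4 with the GC offset, 4 with copies summed and WT31 replicates 2 and 3 left out, and 5 to 13 with single libraries left out. The number lower was 52 with either pseudocount, 49 without WT31 replicates 2 and 3, 55 with copies summed as well, and 28 to 38 with single libraries left out. The members' median was -0.25 with either pseudocount and -0.22 with copies summed and both replicates left out, and -0.13 to -0.05 with single libraries left out. Replicate numbers did not pair the libraries: correlations of same-numbered libraries were -0.096 to 0.178, 1 of them over 0.1, and 4 of 10 libraries correlated best with their own number. The replicate block gave 13 members higher and 35 lower, and 4752 and 4628 of all tested genes.

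Of the named members, 9 changed sign. Rpl12 went to -0.19 with pseudogenes or all copies summed and to -0.27 with both replicates left out as well. Rpl10 went to -0.15 without WT31 replicates 2 and 3, -0.32 with copies summed and -0.38 with both. Rps27 went to 0.050 with copies summed. Rpl5 went to 0.047 and 0.046 on TPM with the lower and higher pseudocount and 0.19 with the length offset, Rps24 to 0.034 with the GC offset, and Rps27l to -0.0027 on TPM with either pseudocount. Rpl41 went to -0.0034 on TPM with either pseudocount and to -0.020 without WT31 replicates 2 and 3 (-0.021 with copies summed). Rplp1 went to -0.0014 with DESeq2, -0.056 with voom without scaling, -0.0043 with TMM without members, -0.051 without a filter, -0.18 on TPM with either pseudocount, -0.044 with the length offset, -0.18 with the GC offset, and -0.14 without WT31 replicates 2 and 3, with or without copies summed. With single libraries left out Rplp1 ranged from -0.062 to 0.048 and Rps13 from -0.17 to 0.077. Except where copies were summed, which adds their counts, the cause was not tested. Depth limited only Rpl3l, Rpl10l and Rpl39l, which were under 3 counts.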
